A study of Drosophila melanogaster with 48 samples.

Results

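The nuclear genes of respiratory complexes III, IV and V were followed in brains of Drosophila melanogaster in a fly series on mucopolysaccharidosis IIIB. The genes were chosen by symbol, with earlier results of these data known, and the rule uses no measured difference: FlyBase symbols that start with UQCR-, COX4, COX5, COX6, COX7, COX8 or ATPsyn, together with blw, RFeSP and Cyt-c1, were taken where the gene is protein-coding and had at least 10 counts summed over the 48 libraries. The symbols matched 43 genes, and 41 of them passed the count minimum, out of 17490 gene identifiers in the count table. Of the 41 genes, 10 belong to complex III, 15 to complex IV and 16 to complex V. They split into 27 main subunits and 14 paralogs whose symbols end in L or L2, which mark a copy like a main subunit. The remaining 2 genes, UQCR-14 of complex III and the paralog COX5BL of complex IV, had 0 counts in all 48 libraries, and 100% of the exon bases of each lie within exons of a gene on the opposite strand. All 41 genes also passed the filter on low counts used for testing.

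Complexes III, IV and V are the last steps of oxidative phosphorylation in the inner mitochondrial membrane. Complex III passes electrons from ubiquinol to cytochrome c, complex IV (cytochrome c oxidase) passes them on to oxygen, and complex V (ATP synthase) uses the proton gradient built on the way to make ATP. Most of their subunits are encoded in the nucleus and imported, while a few catalytic ones come from the mitochondrial genome, and neurons depend heavily on this supply of ATP. Several duplicated copies of such genes in Drosophila are known for expression in the testis.

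Each library was made from 20 brains that were frozen on dry ice after dissection, with ribosomal RNA depleted, and reads were counted per gene. The 48 libraries formed 16 groups of 3 by genotype, sex and age. The genotypes were labelled NAGLU KO, NAGLU W422X, NAGLU Y160C and WG2, called KO, W422X, Y160C and WG2 here, and ages were labelled week 0 and week 3. No NAGLU change is named for WG2, which stands as the control here. The labels used here do not say how the alleles were made, whether WG2 is the parental line, or whether replicates came from separate cultures, and the p-values rest on the variation among these libraries alone. NAGLU encodes alpha-N-acetylglucosaminidase, the lysosomal enzyme of heparan sulfate breakdown that is missing in mucopolysaccharidosis IIIB, and Naglu is its fly counterpart.

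Naglu itself was measured at 1.40 to 3.71 CPM (counts per 1e6 library counts, scaled by TMM factors) in KO libraries, 4.55 to 9.13 CPM in W422X, 17.5 to 25.7 CPM in Y160C and 17.9 to 29.5 CPM in WG2. All KO libraries lay below all W422X libraries, and these below all Y160C and WG2 libraries. Library totals ran between 8690199 counts and 55801160 counts. Of the matched neuron markers, 0 of 10 had a library without a count. Some libraries stood apart: in 9 of the week 3 libraries, and in none at week 0, more than 0.35% of counts fell in genes that average under 1 CPM. These 9 high-background libraries were KO females 1 and 3, KO males 2 and 3, W422X female 1, Y160C females 1 and 2, Y160C male 3 and WG2 female 2.

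The main subunits moved together between replicates. In 21 of the 48 libraries, at least 20 of the 27 main subunits were all the lowest, or all the highest, of the 3 libraries of their group. The share of all tested genes that were lowest or highest in the same libraries was not counted. The shared movement is thus not shown to be particular to these genes. All 27 were lowest in W422X female week 3 replicate 1, by a median of -0.61 on the log2 scale from the group mean, in WG2 female week 3 replicate 2 by -0.42, and in Y160C male week 3 replicate 3 by -0.26. Each of these 3 libraries was a high-background one, with 1.23%, 0.794% and 0.734% of counts in low genes. All 27 were highest in 4 libraries: KO male week 3 replicate 1, by a median of 0.43, W422X male week 0 replicate 1 by 0.28, Y160C female week 3 replicate 3 by 0.25 and KO female week 0 replicate 2 by 0.20. Their shares were 0.0702%, 0.0887%, 0.0691% and 0.174%, and the last was the highest of its group, as was that of KO male week 0 replicate 2, at 0.274%, where 25 main subunits were highest. The part of the background in these shifts was not tested.

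Levels per length were compared as RPKM, the CPM divided by the deposited gene length in kilobases. ATPsynC, the subunit of the rotating membrane ring of ATP synthase, had the highest level of the 41 genes, 485 ± 165 RPKM (mean ± SD, n = 48 libraries), with a range of 242 to 966 RPKM. It (FBgn0039830) is annotated on chromosome 3R from 31216145 to 31219630, minus strand, in BDGP6.54, the annotation used for positions, since the count table names no build. COX6B (FBgn0031066), a subunit on the outer face of complex IV, followed at 350.5 ± 101 RPKM and lies on chromosome X from 19740537 to 19744335, minus strand. The alpha subunit of the catalytic head of ATP synthase, blw (FBgn0011211), had 347 ± 116 RPKM, and its partner ATPsynbeta, which carries the catalytic sites, had 215 ± 55.5 RPKM. Ranges of these leading genes overlapped over the 48 libraries.

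In complex III the core protein UQCR-C1 (FBgn0038271) had the highest level per length, 205 ± 52 RPKM, and it lies on chromosome 3R from 14890231 to 14892387, plus strand. RFeSP, the Rieske iron-sulfur protein, had 183 ± 57.2 RPKM, the second core protein UQCR-C2 had 157 ± 43.2 RPKM, and the haem protein Cyt-c1 had 133 ± 35.6 RPKM. The small subunits UQCR-Q, UQCR-6.4 and UQCR-11 were lower, at 95.02 ± 29.9, 69.4 ± 23.1 and 24.5 ± 5.26 RPKM. In complex IV, COX5A had 286 ± 90.9 RPKM and COX7C, the lowest main subunit of that complex, had 111 ± 37 RPKM. ATPsyndelta of the central stalk was the lowest main subunit of complex V at 26.6 ± 7.26 RPKM, with a deposited length of 3817 bases, of which 35.6% lie within exons of an opposite-strand gene, CG2962.

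All 14 paralogs had lower mean levels than all 27 main subunits. ATPsynCF6L and UQCR-11L led them, at 7.53 ± 1.64 and 7.21 ± 1.60 RPKM. COX7CL and COX4L followed at 1.60 ± 0.588 and 1.20 ± 0.595 RPKM, and the other 10 averaged 0.278 to 1.07 RPKM. Each of these 10 had 0 counts in at least 1 library: ATPsynGL in 14 libraries, UQCR-14L in 12, ATPsynepsilonL and COX7AL in 11 each, COX6AL in 10, COX6AL2 in 6, and COX7AL2, COX6CL, UQCR-6.4L and ATPsynbetaL in 1 each. The summed level of the 14 paralogs was 16.3 to 41.5 CPM in the 9 high-background libraries, 7.65 to 13.4 CPM in the other 15 week 3 libraries and 10.5 to 17.6 CPM in the 24 week 0 libraries. The first of these ranges lay above the second without overlap, and it overlapped that of week 0. Paralogs such as UQCR-14L, at a mean of 0.364 CPM, belong to the low genes whose share defined the high-background libraries. A higher paralog sum in those libraries thus follows in part from that choice. The division of reads between a main subunit and its paralog is uncertain, because the treatment of reads that fit more than 1 gene is not given in the sources used here. Of the 41 genes, 12 share exon bases with another gene, among them COX6AL2, where 67.0% of its bases lie in same-strand exons of other genes, and UQCR-6.4, with 40.5% on the opposite strand.

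**Figure D1:**
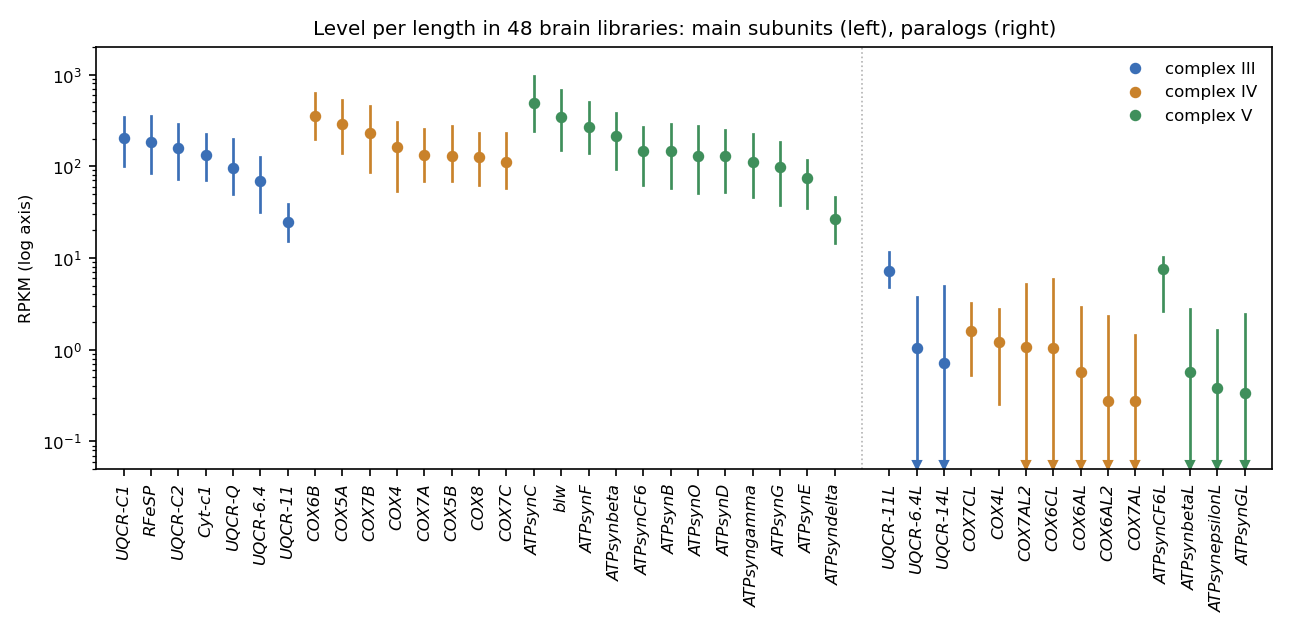
Mean level per length of the 41 genes in RPKM on a log axis (dots), with bars from the lowest to the highest of the 48 libraries and a triangle where the lowest value is 0; main subunits stand on the left, paralogs on the right, coloured by complex. ATPsynC is highest at a mean of 485 RPKM, and every paralog mean lies below UQCR-11, the lowest main subunit at 24.5 RPKM.

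The largest change of these genes was with age: in every genotype, main subunits of all 3 complexes were lower in week 3 brains than in week 0 brains. Tested with edgeR's quasi-likelihood test with Benjamini-Hochberg adjustment over 15807 genes, at an adjusted p under 0.05, 26 of 27 main subunits fell in KO, 21 in W422X, 23 in Y160C and 22 in WG2, and none rose. The share of all tested genes called lower was 11.5% in KO, 2.99% in W422X, 4.29% in Y160C and 5.21% in WG2. The median log2 fold change of the 27 main subunits, week 3 over week 0, was -0.82 in KO, -0.57 in W422X, -0.62 in Y160C and -0.575 in WG2, beside medians over all tested genes of 0.12, 0.13, 0.16 and 0.07. The median SE of the 27 values was 0.15. All 27 log2 fold changes were negative in each of the 8 combinations of genotype and sex.

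Summed over a complex, the levels at week 3 were lower in every genotype by more than the SD between libraries. The 12 main subunits of complex V summed to 2158 ± 486 CPM at week 3, against 3931 ± 542 CPM at week 0, in KO brains (mean ± SD, n = 6 each). The W422X sums were 2763 ± 649 CPM at week 3, against 4446 ± 1080 CPM at week 0, and the Y160C sums 2436 ± 466 CPM, against 3765 ± 491 CPM. In WG2 brains they summed to 2614 ± 462 CPM at week 3, against 4136 ± 601 CPM at week 0. The 8 main subunits of complex IV summed to 799.6 ± 158 CPM at week 3, against 1388 ± 246 CPM at week 0, in KO brains (mean ± SD, n = 6 each). The W422X sums were 984 ± 231 CPM at week 3, against 1499 ± 391 CPM at week 0, and the Y160C sums 838 ± 145 CPM, against 1332 ± 174 CPM. In WG2 brains they summed to 949 ± 207 CPM at week 3, against 1426 ± 175 CPM at week 0. The 7 main subunits of complex III summed to 836 ± 175 CPM at week 3, against 1398 ± 232 CPM at week 0, in KO brains (mean ± SD, n = 6 each). The W422X sums were 1040 ± 234 CPM at week 3, against 1503 ± 348 CPM at week 0, and the Y160C sums 902 ± 176 CPM, against 1332 ± 190 CPM. In WG2 brains they summed to 986 ± 173 CPM at week 3, against 1416 ± 180 CPM at week 0. In bulk brains, fewer cells that express a gene and less RNA per cell cannot be told apart.

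ATPsynC was measured in KO brains at 523, 569.9 and 843 CPM (lowest, median and highest of 6 libraries) at week 3, against 1048, 1126 and 1564 CPM at week 0. In W422X brains it had 478, 819 and 988 CPM at week 3, against 1032, 1241 and 1913 CPM at week 0. In Y160C brains it had 511, 664 and 810.3 CPM at week 3, against 935, 1082 and 1353 CPM at week 0, and in WG2 brains 495, 772 and 887 CPM at week 3, against 1072, 1219 and 1602 CPM at week 0. In each genotype all 6 week 3 libraries lay below all 6 week 0 libraries. The log2 fold change was -0.98 in KO (SE 0.13, adjusted p = 1.74e-06), -0.75 in W422X (adjusted p = 0.000198), -0.72 in Y160C (adjusted p = 0.000385) and -0.76 in WG2 (adjusted p = 0.000146), which left 0.505, 0.595, 0.608 and 0.59 of the week 0 level.

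The alpha subunit of the catalytic head showed the same order of ages. Again as lowest, median and highest of 6 libraries, blw had 394, 462 and 754 CPM at week 3 in KO, against 824, 927 and 988 CPM at week 0. It had 343, 721 and 768 CPM at week 3 in W422X, against 836, 1067 and 1537 CPM at week 0, and 417, 569.8 and 727 CPM at week 3 in Y160C, against 770.3, 881 and 1162 CPM at week 0. In WG2 it had 449, 577 and 704 CPM at week 3, against 786, 970.1 and 1335 CPM at week 0. The 6 week 3 libraries lay below the 6 week 0 libraries in every genotype, and the log2 fold changes of blw were -0.89, -0.74, -0.66 and -0.80 in KO, W422X, Y160C and WG2, each called lower. ATPsyngamma, the shaft that turns inside the head, likewise had no overlap between the ages in any genotype, with log2 fold changes of -0.94, -0.75, -0.75 and -0.78 in the same order of genotypes. For these 3 genes the calls in all 4 genotypes were kept under each of the 60 alternative settings tried. Of the 60, 48 left out 1 library each, and only 12 of those libraries belong to any 1 genotype. Leaving out a library of another genotype can change an age comparison only through the shared filter, scaling and spread.

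**Figure D2:**
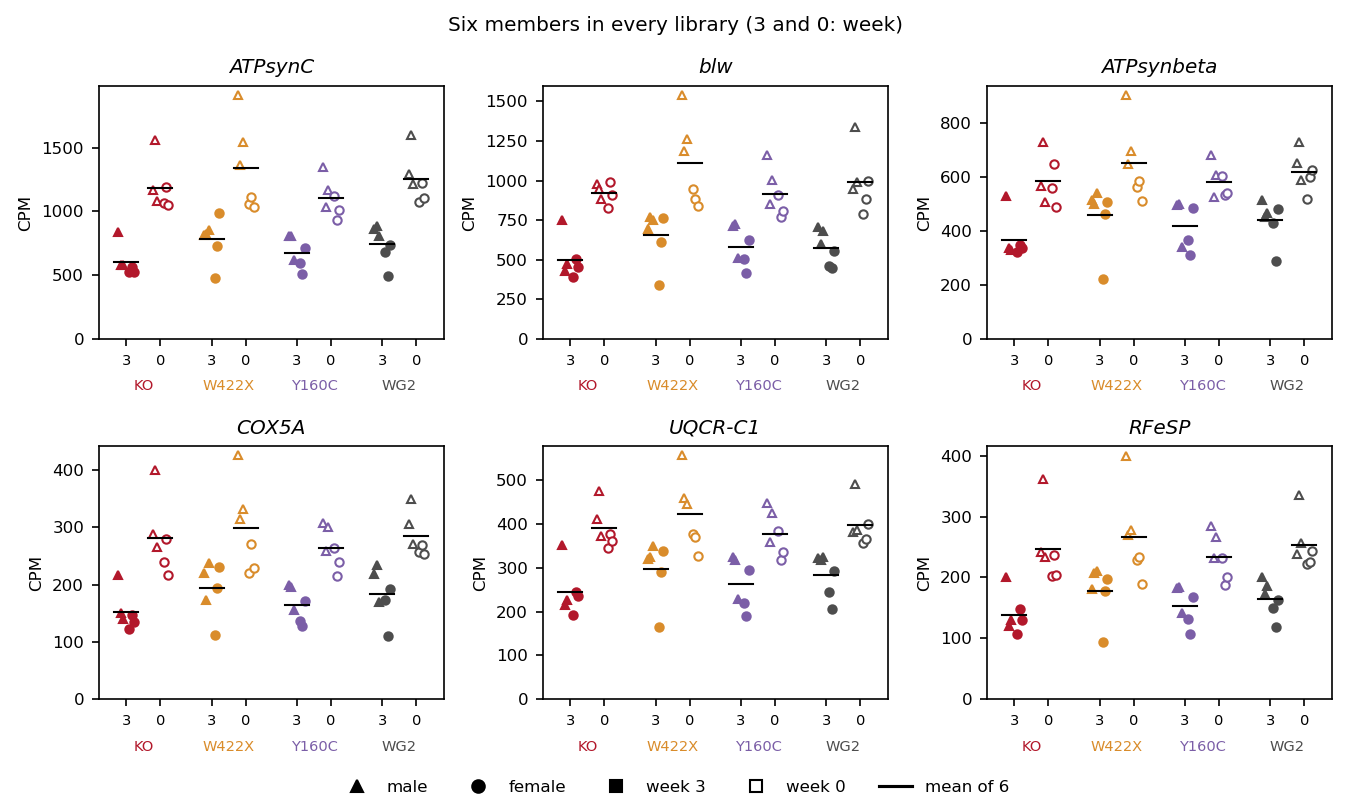
CPM of ATPsynC, blw, ATPsynbeta, COX5A, UQCR-C1 and RFeSP in each of the 48 libraries by genotype, with week 3 (filled) left of week 0 (open), males as triangles, females as circles and a line at the mean of the 6 libraries. The week 3 mean lies below the week 0 mean in each genotype, and W422X female replicate 1 is the lowest W422X library at week 3.

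In the rest of complex V, values are given as means of 6 libraries per age, with the lowest and highest of the 8 SDs, for KO, W422X, Y160C and WG2 in that order. ATPsynbeta, the catalytic subunit, averaged 367, 457, 416 and 438 CPM at week 3 in KO, W422X, Y160C and WG2, against 584, 650.2, 580.2 and 618 CPM at week 0 (SDs 59.8 to 140), and its log2 fold changes were -0.67, -0.50, -0.48 and -0.50. ATPsynB of the stator stalk averaged 86.5, 109, 98.7 and 106 CPM at week 3 in KO, W422X, Y160C and WG2, against 169, 184, 158 and 167 CPM at week 0 (SDs 16.9 to 49.2), and its log2 fold changes were -0.97, -0.74, -0.68 and -0.66. ATPsynO, which joins the stalk to the head, averaged 67.9, 88.8, 77.2 and 83.6 CPM at week 3 in KO, W422X, Y160C and WG2, against 126, 140.3, 118 and 122 CPM at week 0 (SDs 15.5 to 42.6), and its log2 fold changes were -0.89, -0.65, -0.61 and -0.55. These 3 genes were called lower in all 4 genotypes. Of 60 alternatives, the ATPsynbeta call was lost under 13 in Y160C, 7 in W422X, 6 in WG2 and 3 in KO. That of ATPsynO was lost under 6 in WG2 and 6 in Y160C. ATPsynD, also of the stator stalk, averaged 80.7, 101, 84.4 and 101 CPM at week 3 in KO, W422X, Y160C and WG2, against 145, 164, 140.1 and 159 CPM at week 0 (SDs 13.5 to 50.2), and its log2 fold changes were -0.85, -0.66, -0.73 and -0.66. ATPsynF, a small membrane subunit, averaged 109, 145, 121 and 136 CPM at week 3 in KO, W422X, Y160C and WG2, against 202, 217, 191 and 202 CPM at week 0 (SDs 23 to 52.9), and its log2 fold changes were -0.89, -0.57, -0.65 and -0.57. ATPsyndelta of the central stalk averaged 70.1, 85.3, 76.05 and 83.5 CPM at week 3 in KO, W422X, Y160C and WG2, against 121, 134, 114 and 127 CPM at week 0 (SDs 8.67 to 22.6), and its log2 fold changes were -0.79, -0.65, -0.59 and -0.60. They too were called lower in all 4 genotypes, with adjusted p-values up to 0.0087. ATPsynCF6, a stator stalk subunit, averaged 76.4, 91.3, 83.02 and 97.2 CPM at week 3 in KO, W422X, Y160C and WG2, against 121, 127, 114 and 127 CPM at week 0 (SDs 12.7 to 36.8), and its log2 fold changes were -0.66, -0.46, -0.47 and -0.40. ATPsynG, a small membrane subunit, averaged 55.2, 73.5, 62.05 and 69.9 CPM at week 3 in KO, W422X, Y160C and WG2, against 94.9, 95.9, 82.99 and 91.9 CPM at week 0 (SDs 7.41 to 27.5), and its log2 fold changes were -0.80, -0.39, -0.43 and -0.40. ATPsynE, another small membrane subunit, averaged 39.6, 44.7, 47.8 and 57.5 CPM at week 3 in KO, W422X, Y160C and WG2, against 60.3, 61.7, 56.1 and 66.4 CPM at week 0 (SDs 2.36 to 22.3), and its log2 fold changes were -0.64, -0.46, -0.25 and -0.20. These last 3 were called lower in KO and in no other genotype, where their adjusted p-values were 0.0997 to 0.658. The KO call was lost under 18 of 60 alternatives for ATPsynE, 5 for ATPsynCF6 and 2 for ATPsynG, in each case also without the 9 high-background libraries.

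Complex IV followed the same pattern. As lowest, median and highest, COX5A had 122, 143 and 216 CPM at week 3 in KO, against 217, 273 and 401 CPM at week 0. It had 111, 208 and 238 CPM at week 3 in W422X, against 221, 293 and 426 CPM at week 0, and 128, 164 and 199 CPM at week 3 in Y160C, against 216, 262 and 308 CPM at week 0. In WG2 it had 111, 182 and 234 CPM at week 3, against 254.1, 270.1 and 349 CPM at week 0. COX5A did not overlap between the ages in KO, Y160C or WG2, and its log2 fold changes were -0.89, -0.60, -0.69 and -0.64 in KO, W422X, Y160C and WG2. COX6B averaged 184, 242, 202 and 220.1 CPM at week 3 in KO, W422X, Y160C and WG2, against 339.6, 367, 318 and 339 CPM at week 0 (SDs 29.3 to 77.3), and its log2 fold changes were -0.88, -0.58, -0.65 and -0.63. COX4 averaged 137, 165, 144 and 168 CPM at week 3 in KO, W422X, Y160C and WG2, against 232, 266, 240.2 and 262 CPM at week 0 (SDs 27.3 to 73.2), and its log2 fold changes were -0.77, -0.68, -0.74 and -0.65. Both were called lower in all 4 genotypes. COX5B, which binds a zinc ion, averaged 65.3, 78.6, 72.2 and 85.9 CPM at week 3 in KO, W422X, Y160C and WG2, against 123, 114.6, 107 and 117 CPM at week 0 (SDs 14.4 to 38.4), and its log2 fold changes were -0.91, -0.53, -0.57 and -0.45. COX7A, a small subunit, averaged 65.5, 85.6, 70.5 and 76.5 CPM at week 3 in KO, W422X, Y160C and WG2, against 108, 122, 108 and 112 CPM at week 0 (SDs 13.3 to 32.8), and its log2 fold changes were -0.73, -0.49, -0.62 and -0.55. COX7C, another small subunit, averaged 61.8, 81.4, 66.8 and 76.9 CPM at week 3 in KO, W422X, Y160C and WG2, against 115.3, 128, 111 and 116 CPM at week 0 (SDs 10 to 40.8), and its log2 fold changes were -0.90, -0.62, -0.72 and -0.60. Those 3 were called lower in all 4 genotypes as well, but the COX5B call in WG2 was lost under 23 of 60 alternatives. COX8, also small, averaged 46.1, 58.9, 50.6 and 55.1 CPM at week 3 in KO, W422X, Y160C and WG2, against 76.8, 80.4, 72.7 and 77.3 CPM at week 0 (SDs 9.71 to 22.3), and its log2 fold changes were -0.73, -0.43, -0.53 and -0.48. Its call was lost under 28 of 60 alternatives in WG2 and 10 in Y160C, and it missed the threshold in W422X, at an adjusted p of 0.097. COX7B averaged 87.5, 78.1, 66.9 and 83.9 CPM at week 3 in KO, W422X, Y160C and WG2, against 111, 122, 111 and 118 CPM at week 0 (SDs 14 to 43.1), and its log2 fold changes were -0.36, -0.61, -0.73 and -0.50. It was called lower in Y160C alone, a call lost under 31 of 60 alternatives, and its adjusted p in KO was 0.226.

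Complex III also fell. As lowest, median and highest, UQCR-C1 had 191, 232 and 351 CPM at week 3 in KO, against 344, 374 and 476 CPM at week 0. It had 165, 322 and 350.3 CPM at week 3 in W422X, against 326, 411 and 557 CPM at week 0, and 190.1, 261 and 324 CPM at week 3 in Y160C, against 318, 370.2 and 447 CPM at week 0. In WG2 it had 205, 304 and 323 CPM at week 3, against 356, 383 and 490.5 CPM at week 0. The ages of UQCR-C1 did not overlap in WG2 and overlapped in KO, where KO male replicate 1 at week 3 was above the lowest week 0 library. The log2 fold changes of UQCR-C1 were -0.68, -0.50, -0.53 and -0.49 in KO, W422X, Y160C and WG2. RFeSP, the Rieske protein, averaged 139, 178, 153 and 165 CPM at week 3 in KO, W422X, Y160C and WG2, against 247, 266, 234 and 253.8 CPM at week 0 (SDs 28.7 to 73), and its log2 fold changes were -0.82, -0.57, -0.61 and -0.63. UQCR-C2 averaged 193, 228, 204 and 221 CPM at week 3 in KO, W422X, Y160C and WG2, against 314, 343, 302 and 310 CPM at week 0 (SDs 36.6 to 83.5), and its log2 fold changes were -0.70, -0.58, -0.57 and -0.50. Cyt-c1 averaged 141, 183, 157 and 168 CPM at week 3 in KO, W422X, Y160C and WG2, against 243, 255, 226 and 249 CPM at week 0 (SDs 26.4 to 52.4), and its log2 fold changes were -0.78, -0.47, -0.53 and -0.58. These 4 genes were called lower in all 4 genotypes. UQCR-Q, a small subunit, averaged 61.98, 83.97, 66.6 and 79.5 CPM at week 3 in KO, W422X, Y160C and WG2, against 112, 120.5, 105 and 112 CPM at week 0 (SDs 12.2 to 38.5), and its log2 fold changes were -0.84, -0.50, -0.65 and -0.51. UQCR-6.4, another small subunit, averaged 26.7, 33.5, 26.6 and 31.98 CPM at week 3 in KO, W422X, Y160C and WG2, against 48.1, 49.7, 45.7 and 49.1 CPM at week 0 (SDs 5.03 to 13.9), and its log2 fold changes were -0.84, -0.54, -0.78 and -0.62. They also were called lower in all 4 genotypes. Of 60 alternatives, the UQCR-6.4 call in W422X was lost under 10 and the UQCR-Q call in WG2 under 8. UQCR-11 averaged 30.7, 36.2, 32.9 and 36.3 CPM at week 3 in KO, W422X, Y160C and WG2, against 45.2, 46.3, 41.8 and 46.1 CPM at week 0 (SDs 3.11 to 9.42), and its log2 fold changes were -0.56, -0.34, -0.35 and -0.35. It was called lower in KO only, and its adjusted p-values in the other genotypes were 0.0905 to 0.0996.

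With 6 libraries against 6, every week 3 library lay below every week 0 library for 10 of 27 main subunits in KO, 3 in W422X, 16 in Y160C and 15 in WG2. The share of all tested genes with that order was 2.2%, 1.09%, 2.58% and 3.41% in KO, W422X, Y160C and WG2. The 3 genes of W422X were ATPsynC, ATPsyngamma and blw, which met this order in all 4 genotypes.

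**Figure D3:**
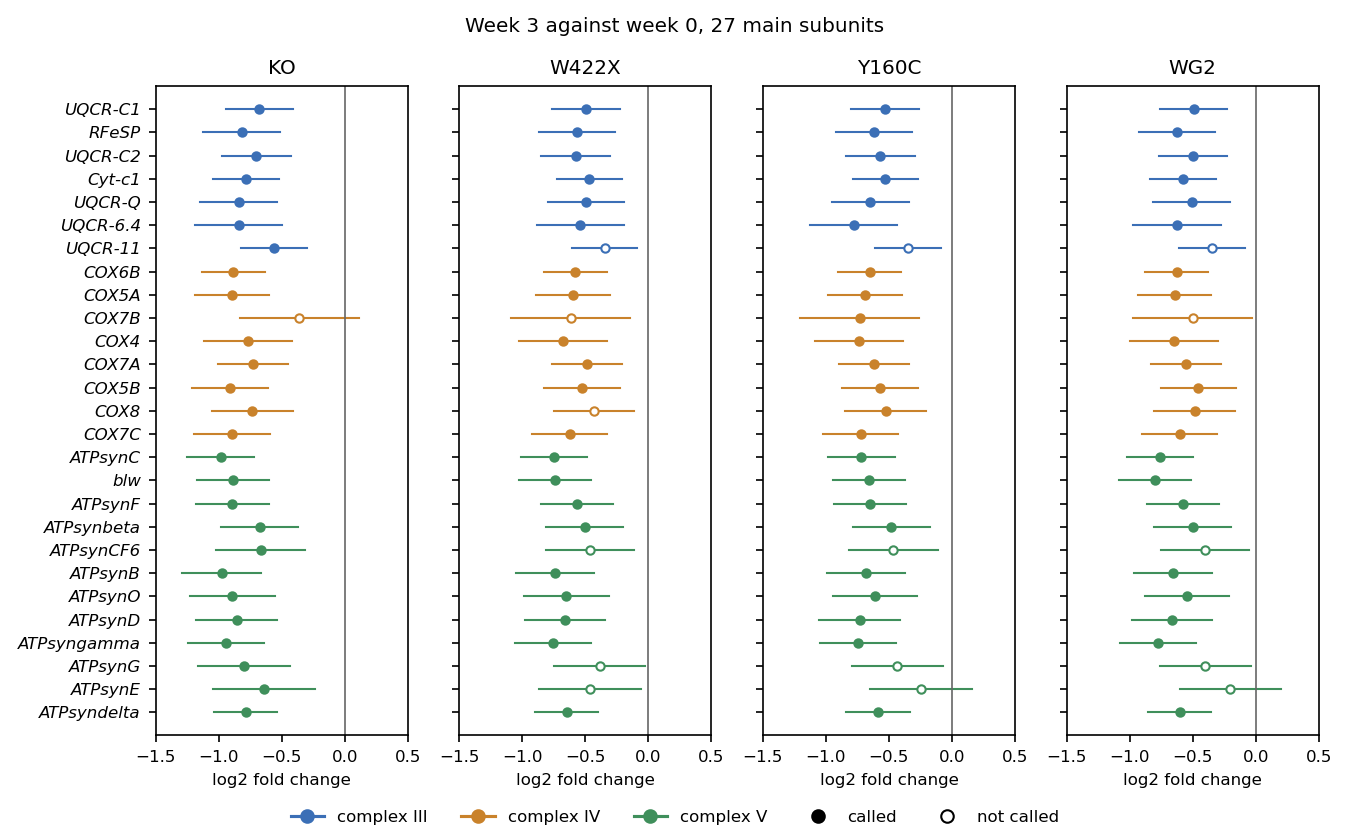
Log2 fold change of week 3 over week 0 with its 95% interval for the 27 main subunits in KO, W422X, Y160C and WG2, coloured by complex, with filled dots for genes called at an adjusted p under 0.05 and open dots for the others. All dots lie left of 0, with 26 filled in KO, 21 in W422X, 23 in Y160C and 22 in WG2.

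The fall was not shown to differ between mutants and WG2. In the test of the difference between the ages in KO and the ages in WG2, 0 of 41 genes were called, beside 0.215% of all genes, and the log2 differences of the main subunits had a median of -0.22 (median SE 0.21). Over the 41 genes that median was -0.18, but -0.065 with the background share as a covariate and -0.053 without KO male week 0 replicate 2. At an unadjusted p under 0.05 there was 1 gene, COX5B, at -0.45 (95% interval -0.88 to -0.03, adjusted p = 0.788), beside 930 of all 15807 tested genes. For W422X the test called 0 of 41 genes, beside 0% of all genes, with a median of 0.003 for the main subunits. For Y160C it called 0 of 41, beside 0.019% of all genes, with a median of -0.045. Neither had 1 of the 41 genes at an unadjusted p under 0.05, and DESeq2 called 0 of the 41 genes in each of these 3 tests. Such a p was met by 207 of all tested genes for W422X and 426 for Y160C.

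Without the 9 high-background libraries, 13 of the 41 genes were called lower with age in KO, 20 in W422X, 14 in Y160C and 18 in WG2, an alternative added after the data were seen. KO lost females 1 and 3 and males 2 and 3 of week 3, while W422X lost only female 1 and WG2 only female 2. The counts are therefore not comparable between genotypes, and the share of all genes called in that fit is not given here. The 13 of KO were ATPsynB, ATPsynC, ATPsynF, ATPsynO, ATPsyndelta, ATPsyngamma, blw, COX5A, COX5B, COX6B, COX7C, Cyt-c1 and UQCR-C1, and the log2 fold changes of those and the other main subunits called with all libraries stayed negative. The medians over the 41 genes were then -0.55 in KO, -0.46 in W422X, -0.42 in Y160C and -0.40 in WG2, against -0.70, -0.50, -0.53 and -0.50 with all libraries. In WG2 the count was 13 without female week 3 replicate 2 and 14 without male week 0 replicate 2, again without the share of all genes.

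The neuron markers fell with age too: 10 of 10 were called lower in KO, 7 in W422X, 8 in Y160C and 7 in WG2, with medians of -0.56, -0.40, -0.47 and -0.48. Their summed level was 8464 to 12110 CPM in week 3 KO brains, against 11230 to 16310 CPM at week 0. W422X brains had 8836 to 12910 CPM at week 3, against 13670 to 17070 CPM at week 0, and Y160C brains 8951 to 11990 CPM, against 12790 to 16580 CPM. WG2 brains had 8482 to 12340 CPM at week 3, against 13260 to 16580 CPM at week 0. Of 11 glia markers, 5 were called lower and 1 higher in KO, 1 lower and 2 higher in W422X and in Y160C, and 1 each way in WG2. Of 15 photoreceptor markers 5 were called lower and 1 higher in KO, 2 lower in W422X, 1 lower in Y160C, and 1 lower and 2 higher in WG2. Haemocyte markers called lower were 4 of 10 in KO and 3 in each other genotype, with 3 called higher in KO and 2 in Y160C. Fat body markers called higher were 3 of 11 in KO, 2 in W422X, 3 in Y160C and 1 in WG2, with 1 called lower, in KO. Muscle markers were positive for 15 of 15 in Y160C, with a median of 1.43 and 1 called higher, bt, while 0 of 15 were called in each other genotype, with medians of -0.03 in KO, -0.11 in W422X and 0.31 in WG2. Of 10 follicle cell markers 3 were called higher in KO, Cp15, Cp36 and Vm26Aa, and all 10 were positive there, with a median of 1.86. Their sums in KO at week 3 were 14.7 to 27.9 CPM in the high-background libraries of both sexes. KO female replicate 2 and male replicate 1, outside that group, had 9.46 and 11.2 CPM. Markers of ovarian follicle cells and of testis and germ line summed to at most 38.4 and 62.3 CPM in any library, and 7 of 10 follicle cell and 11 of 17 testis markers had libraries with 0 counts. The part of these markers in the fall was not tested beyond the covariate settings: with photoreceptor and fat body markers in the model 18 of the 41 genes were called in KO, and with muscle markers 13 were called in Y160C. The share of all genes called in those fits is not given here.

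No paralog was called lower with age in any genotype. Of the 14, 2 were called higher, both in KO, beside 6.38% of all genes called higher there. COX4L, a copy of COX4, had 30, 31 and 39 counts in KO females and 17, 36 and 17 in KO males at week 3, against 9, 9 and 6 in females and 7, 9 and 23 in males at week 0. That made 1.33 ± 0.359 CPM at week 3 and 0.522 ± 0.208 CPM at week 0 (SD, n = 6), a log2 fold change of 1.36 (SE 0.40, adjusted p = 0.0159). In the other genotypes COX4L averaged 1.08, 1.29 and 0.891 CPM at week 3 in W422X, Y160C and WG2, against 0.540, 0.742 and 0.599 CPM at week 0, with no call. Leaving out the 9 high-background libraries, its log2 fold change in KO was 0.94, with an adjusted p of 0.329. Of 16 tested testis and germ line markers 3 were called higher with age in KO, and their summed level was 17.6 to 43.1 CPM at week 3, against 14.9 to 20.4 CPM at week 0. At week 3 it was 27.9 to 43.1 CPM in the high-background KO libraries. KO female replicate 2 and male replicate 1, outside that group, had 20.8 and 17.6 CPM. The part of these markers and of the background in the 2 calls was not tested.

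ATPsynepsilonL, a copy of the small epsilon subunit of the central stalk, had 10, 0 and 9 counts in KO females and 0, 11 and 7 in KO males at week 3, against 0, 0 and 0 in females and 3, 4 and 2 in males at week 0. The 4 week 3 libraries with counts were the 4 high-background libraries of KO, and the other 2 had 0. ATPsynepsilonL, at a mean of 0.188 CPM, is itself among the low genes whose share defined those libraries. The fitted log2 fold change was 3.32 (SE 1.09, adjusted p = 0.0314), and over the alternatives it lay between 0.52 and 3.66. It was 0.52, with an adjusted p of 1, when KO female week 3 replicates 1 and 3 were left out. Without all 4 high-background libraries its KO week 3 counts are 0 and no fold is given. The other 12 paralogs were not called in any genotype, among them UQCR-11L and ATPsynCF6L, at -0.18 and -0.15 in KO and -0.26 and -0.44 in WG2.

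The main subunits were higher in males than in females. Over the 8 combinations of genotype and age, 24 of 27 rose in males and 0 fell, beside 6.04% of all tested genes called higher in males. The median log2 fold change, males over females, was 0.33 for the main subunits and -0.025 for all tested genes. In complex III all 7 main subunits were called, in complex IV 6 of 8 and in complex V 11 of 12. None of the 14 paralogs was called in either direction by edgeR's test, where 0 had an unadjusted p under 0.05, beside 3329 of all 15807 tested genes.

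The called log2 fold changes ran between 0.20 for UQCR-11 and 0.40 for ATPsynO, small beside those of age. ATPsynO had 60.1, 112 and 218 CPM in the 24 male libraries, against 40.6, 90.2 and 128 CPM in the 24 female libraries, as lowest, median and highest, with an adjusted p of 0.000836. COX4 had 118, 228 and 372 CPM in the 24 male libraries, against 66.1, 177 and 252 CPM in the 24 female libraries, a log2 fold change of 0.39 (adjusted p = 0.00169). The ranges of the sexes overlapped for both. UQCR-6.4 had 22.9, 46.2 and 69.99 CPM in the 24 male libraries, against 17.9, 33.9 and 53.3 CPM in the 24 female libraries, a log2 fold change of 0.38 (adjusted p = 0.00204). ATPsynC and blw, with the highest levels of complex V, had log2 fold changes of 0.31 and 0.33, and UQCR-C1 and RFeSP of complex III had 0.29 and 0.35. Summed over its 12 main subunits, complex V had 3628 ± 1080 CPM in males and 2935 ± 826 CPM in females, complex IV 1275 ± 366 and 1029 ± 274 CPM, and complex III 1303 ± 336 and 1050 ± 253 CPM (mean ± SD, n = 24 each).

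The other called genes of complex V were ATPsynB at 0.36, ATPsynD at 0.37, ATPsynCF6 at 0.37, ATPsynG at 0.37, ATPsyngamma at 0.31, ATPsynE at 0.30, ATPsynF at 0.29 and ATPsynbeta at 0.24. Complex IV added COX8 at 0.37, COX5B at 0.36, COX5A at 0.34, COX7C at 0.34 and COX7A at 0.32. Complex III added UQCR-Q at 0.35, UQCR-C2 at 0.30 and Cyt-c1 at 0.29. Of 59 alternative settings, the call was kept under only 32 for ATPsynE, 35 for UQCR-11 and 44 for ATPsynbeta. All 24 called genes, and COX6B, were positive in each of the 8 combinations of genotype and age. The medians of the 27 main subunits by combination ran between 0.25 in WG2 at week 0 and 0.53 in W422X at week 0.

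The 3 main subunits that were not called include both X-linked genes of the set. ATPsyndelta had 55.9, 92.3 and 176 CPM in the 24 male libraries, against 62.3, 109 and 135 CPM in the 24 female libraries, a log2 fold change of -0.04 (adjusted p = 0.827). COX6B had 175, 277 and 502 CPM in the 24 male libraries, against 156, 279 and 348 CPM in the 24 female libraries, a log2 fold change of 0.17 (adjusted p = 0.0757). COX7B, which is autosomal, had 53.9, 114 and 190 CPM in the 24 male libraries, against 35.8, 90.4 and 141 CPM in the 24 female libraries, a log2 fold change of 0.27 (adjusted p = 0.153). Over all tested genes the median log2 fold change was -0.13 for 2392 X-linked genes and -0.015 for 13165 autosomal genes. Called higher in males were 233 of the X-linked genes (9.74%) and 673 of the autosomal genes (5.11%). Called lower in males were 409 of the X-linked and 229 of the autosomal genes. Of the 41 genes, 2 are X-linked and 39 autosomal.

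**Figure D4:**
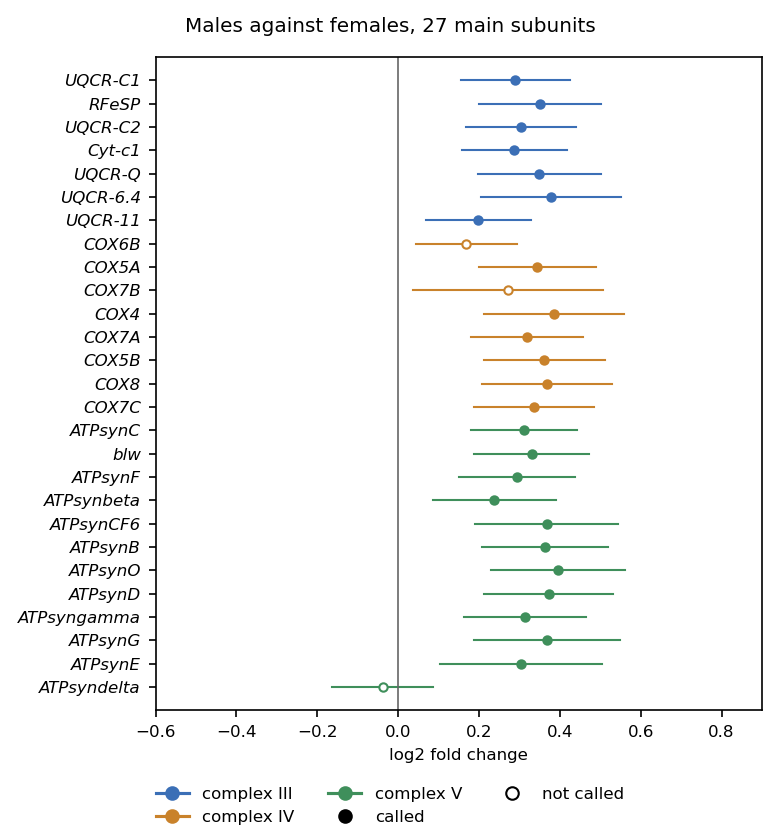
Log2 fold change of males over females, averaged over genotypes and ages, with its 95% interval for the 27 main subunits, coloured by complex, filled where called and open where not. ATPsyndelta is the only dot left of 0, and the 24 filled dots lie between 0.20 and 0.40.

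Markers of other cell types moved with sex as well. Of 11 glia markers 6 were called higher in males, and their summed level was 2911 to 7357 CPM in males and 1995 to 4973 CPM in females. Of 15 photoreceptor markers 4 were called higher, with 1030 to 4832 CPM in males and 746 to 3421 CPM in females, while 4 of 11 fat body markers were called lower and 1 higher, with 1013 to 2026 CPM in males and 1822 to 6035 CPM in females. Of 10 haemocyte markers 5 were called lower, with 711 to 2801 CPM in males and 847 to 8541 CPM in females, and of 10 neuron markers 1 was called each way. The haemocyte sums of KO female week 3 replicates 1 and 3 were 6822 and 8541 CPM. Every other female library had at most 2683 CPM, below the highest male. The photoreceptor sum of 4832 CPM was that of Y160C male week 3 replicate 3. Every other male library had at most 2404 CPM, below the highest female. Muscle, testis, follicle cell and tracheal markers had 0 calls by sex. The fat body list holds the yolk protein genes Yp1, Yp2 and Yp3, at log2 fold changes of -6.96, -7.07 and -6.39, and fit, at -4.24, so a covariate made from it carries the sex difference in part. With photoreceptor and fat body markers as covariates none of the 24 calls remained: 11 genes had the opposite sign, 7 other genes of the set were called higher, and the median over the 41 genes was 0.07, against 0.29. These 7 come from the paralogs of low level and from COX6B, COX7B and ATPsyndelta. The share of all genes called in that fit is not given here. Each of the other 10 settings called 21 to 26 of the 41 genes, and 22 were called without the 9 high-background libraries.

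No gene of the set was called in any mutant against WG2. Averaged over sexes and ages, 0 of 41 were called in KO against WG2, beside 0.747% of all tested genes, 0 in W422X, beside 0.373%, and 0 in Y160C, beside 0.31%. At an unadjusted p under 0.05 there were 3 genes in KO, ATPsynE and ATPsynC lower and COX7AL2 higher, and 0 in W422X and in Y160C. Of all 15807 tested genes, 2321 had such a p in KO, 483 in W422X and 1205 in Y160C. The share in the set was lower in each mutant. DESeq2 called 0 of the 41 genes in each mutant against WG2. The 3 comparisons share the WG2 libraries.

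The median log2 fold change of the 27 main subunits was -0.14 in KO, 0.07 in W422X and -0.14 in Y160C, with a median SE of 0.11, beside medians over all tested genes of 0.02, 0.03 and 0.04. All 27 values were negative in KO and in Y160C, and 6 of 27 in W422X. Over the 41 genes the KO median was -0.14, but -0.036 with the background share as a covariate and -0.054 without KO male week 3 replicate 2. The median limits of the 95% intervals were -0.36 and 0.05 for KO, and -0.13 and 0.28 for W422X. For Y160C they were -0.33 and 0.08. Over all 27 main subunits the intervals lay between -0.63 and 0.31 for KO, between -0.53 and 0.37 for W422X, and between -0.55 and 0.16 for Y160C. By sex and age, the KO medians were -0.32 in males at week 3, -0.22 in females at week 3, -0.01 in males at week 0 and -0.045 in females at week 0. The Y160C medians were -0.17, -0.12, -0.09 and -0.11 in the same order, and those of W422X were 0.035, 0.049, 0.191 and -0.081.

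ATPsynE, a membrane subunit of ATP synthase, had the largest difference of the main subunits in each mutant. As lowest, median and highest, it had 26.4, 51.5 and 67.3 CPM in the 12 KO libraries, 25.1, 53.6 and 78.6 CPM in W422X and 33.1, 54.9 and 62.1 CPM in Y160C, against 25.9, 65.1 and 85.2 CPM in WG2, and the ranges overlapped. Its log2 fold change was -0.35 (95% interval -0.63 to -0.06, adjusted p = 0.33) in KO, -0.24 (95% interval -0.53 to 0.04, adjusted p = 1) in W422X and -0.26 (95% interval -0.54 to 0.03, adjusted p = 0.606) in Y160C. ATPsynC had a log2 fold change of -0.19 (95% interval -0.37 to -0.001, adjusted p = 0.339) in KO, and blw one of -0.14 in KO, 0.17 in W422X and -0.04 in Y160C. For blw the levels were 394, 789 and 988 CPM in the 12 KO libraries, 343, 802 and 1537 CPM in W422X and 417, 749 and 1162 CPM in Y160C, against 449, 745 and 1335 CPM in WG2.

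The largest fold changes against WG2 belonged to paralogs of low level, and none was called. COX6AL had 0, 0.284 and 1.18 CPM in the 12 KO libraries, 0, 0.0468 and 1.46 CPM in W422X and 0.0419, 0.104 and 1.58 CPM in Y160C, against 0, 0.106 and 0.712 CPM in WG2, with fitted log2 fold changes of 1.48 in KO and 1.48 in Y160C. COX6AL2 had 0, 0.723 and 3.40 CPM in the 12 KO libraries, 0, 0.0736 and 7.25 CPM in W422X and 0, 0.132 and 4.21 CPM in Y160C, against 0, 0.205 and 2.09 CPM in WG2, and fitted values of 1.40 in KO, 0.55 in W422X and 1.22 in Y160C. UQCR-14L had 0, 0.216 and 1.94 CPM in the 12 KO libraries, 0, 0.0546 and 2.51 CPM in W422X and 0, 0.106 and 1.96 CPM in Y160C, against 0, 0.106 and 0.846 CPM in WG2, and a fitted value of 1.29 in KO. Each of these 3 overlapped between all genotypes and had libraries at 0 counts. In W422X the other leading ones were ATPsynGL at -0.66 and COX7AL at 0.62, and in Y160C ATPsynepsilonL at 1.08.

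Between mutants, 0 of 41 genes were called in KO against W422X, beside 0.747% of all genes, in KO against Y160C, beside 0.797%, and in Y160C against W422X, beside 0.443%, also with DESeq2. KO against W422X had a median of -0.22 over the 27 main subunits, 26 of them negative. There 17 main subunits were lower at an unadjusted p under 0.05, beside 2342 of all 15807 tested genes in either direction. They were led by blw at -0.31 (95% interval -0.51 to -0.11, adjusted p = 0.207). Y160C against W422X had a median of -0.20 with 10 main subunits lower at an unadjusted p under 0.05, beside 976 of all tested genes. KO against Y160C had -0.02, with 0 of the 41 genes at that p, beside 656 of all tested genes. The main subunits moved together between replicates, so these counts are not of independent genes. The count in KO against W422X depended on 1 library. Without W422X female week 3 replicate 1, 25 of 41 genes were called in KO against W422X, 21 main subunits lower and 4 paralogs higher, among 4460 genes called of all those tested. There blw stood at -0.38 (adjusted p = 0.0133).

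No gene of the set was called for a sex difference unlike that of WG2. The test between each mutant and WG2 called 0 of 41 genes in KO, beside 0.152% of all genes, 0 in W422X, beside 0%, and 0 in Y160C, beside 0.00633%. DESeq2 also called 0 of the 41 genes in each, and at an unadjusted p under 0.05 there was 1 gene in KO, a paralog, and 0 in W422X and in Y160C. Of all 15807 tested genes, 403 had such a p in KO, 622 in W422X and 116 in Y160C.

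**Figure D5:**
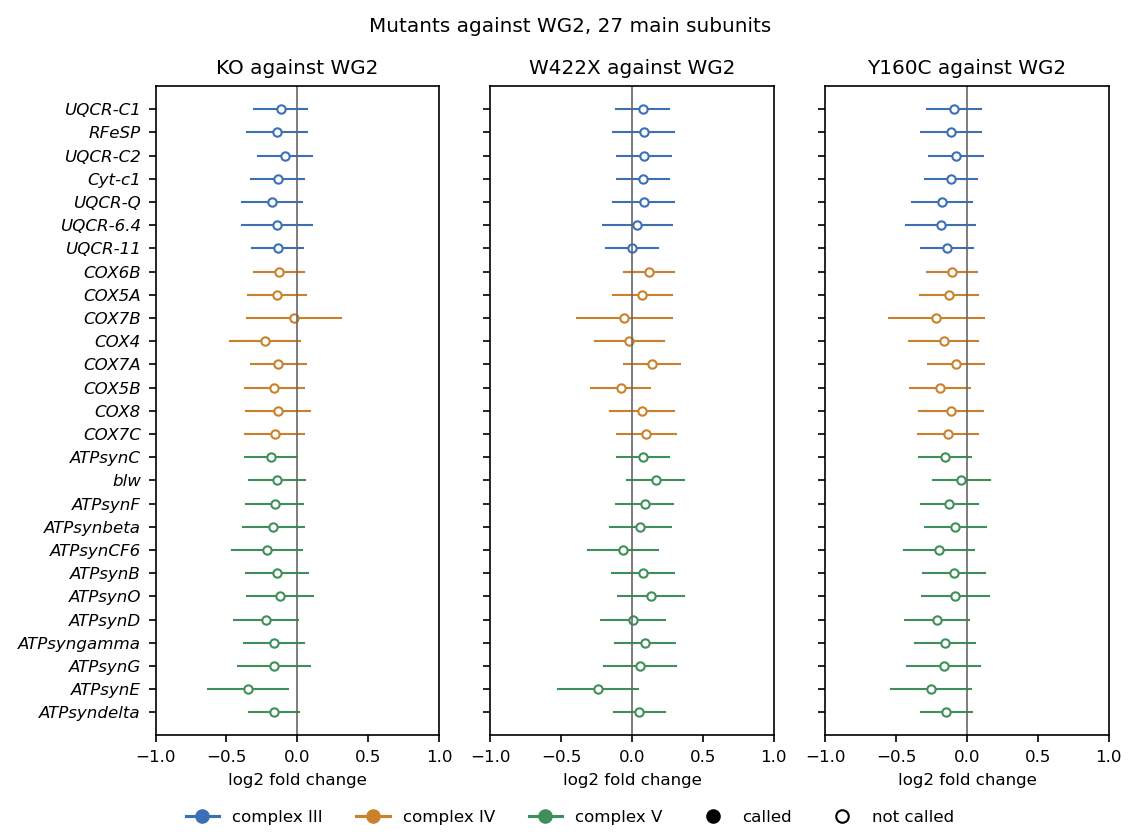
Log2 fold change of KO, W422X and Y160C over WG2, averaged over sexes and ages, with its 95% interval for the 27 main subunits, coloured by complex; open dots mark genes not called. All dots are open, all 27 lie left of 0 in KO and in Y160C, and the medians are -0.14, 0.07 and -0.14.

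Related genes were counted in the same fit. Of 6 matched subunits and electron carriers of complexes III to V whose symbols fall outside the rule, 5 were called lower with age in KO, 3 in W422X, 5 in Y160C and 4 in WG2, and 4 were called higher in males. Cyt-c-p, the cytochrome c that carries electrons between complexes III and IV, had log2 fold changes with age of -0.97 in KO, -0.69 in W422X, -0.72 in Y160C and -0.71 in WG2. Another of them, levy, a complex IV subunit, had -0.88, -0.52, -0.69 and -0.60 in KO, W422X, Y160C and WG2.

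Of 39 tested nuclear subunits of complex I, 27 were called lower with age in KO, 12 in W422X, 19 in Y160C and 12 in WG2, with medians of -0.63, -0.36, -0.43 and -0.39, and 23 were called higher in males. ND-30, for example, had -0.74 in KO and -0.55 in WG2, and 0.34 in males over females. Of 17 tested genes of the TCA cycle and pyruvate dehydrogenase, which feed electrons to the chain, 14 were called lower with age in KO, 10 in W422X, 11 in Y160C and 12 in WG2, and 11 were called higher in males. The citrate synthase gene kdn had -0.72 in W422X, -0.73 in Y160C and -0.79 in WG2. Of the 6 genes of complex II, 3 fell in KO, 1 in W422X, 1 in Y160C and 2 in WG2, and SdhB, its iron-sulfur subunit, was called lower in all 4 genotypes.

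Of 13 protein genes of the mitochondrial genome, 4 were called lower with age in KO, 1 in W422X, 1 in Y160C and 8 in WG2. The cytochrome c oxidase subunit mt:CoIII, a partner of the COX genes in complex IV, had -1.51 in KO, -0.83 in W422X, -0.62 in Y160C and -1.31 in WG2. In Y160C 1 gene of this list was called higher, mt:ATPase8, which averaged 0.386 CPM. Of 21 matched assembly factors, carriers and regulators, 9 fell and 1 rose with age in KO, 3 and 1 in W422X, 4 and 1 in Y160C, and 5 and 1 in WG2. The outer membrane channel porin was called lower in all 4 genotypes, at -0.88, -0.64, -0.66 and -0.67 in KO, W422X, Y160C and WG2. The PGC-1 homologue srl, a coactivator of mitochondrial genes, was the gene called higher in each of the 4 genotypes, for example at 0.72 in W422X and 0.65 in WG2. In males 7 genes of this list were higher and 3 lower, among them Ant2, an ADP/ATP carrier, at -1.05.

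In each mutant against WG2, 0 genes of any of these lists of related genes were called. The share of all tested genes called was 0.747% in KO, 0.373% in W422X and 0.31% in Y160C.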

How the data were processed

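Brain RNA of 48 libraries was read from 1 table of raw counts per gene that the authors deposited together with a gene length, and the submitters' processing notes name Subread, with no version. Alignment, strand and build settings are not given in the sources used here. Of the columns, 0 belonged to samples of other series. Gene positions and exon overlaps were taken from the BDGP6.54 annotation (Ensembl), whose exon bases equal the deposited length for 42 of the 43 matched genes. No gene sequences were used here.

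Counts were fitted with edgeR 4.0.16 (R 4.3.3, limma 3.58.1) as 16 group means. Genes were kept by filterByExpr with a minimum count of 10 and a minimum total of 15, which kept 15807 genes and set 1683 aside. The library sizes were scaled by TMM factors, the quasi-likelihood fit was robust with 32 residual degrees of freedom, and p-values were adjusted by Benjamini-Hochberg over all tested genes, with a call at an adjusted p under 0.05. Mutants were compared with WG2 as the mean over the 4 combinations of sex and age, ages as the mean over the sexes, and sexes as the mean over 8 combinations. CPM used the scaled library sizes and RPKM also the deposited length. The script was tested on simulated counts, with 100 genes changed by each fold. For KO against WG2 it recovered 74% of genes changed 1.5-fold and 83% of those changed 2-fold. For age in WG2 it recovered 55% and 70%. In these runs 5 and 10 unchanged genes were called. Changes smaller than 1.5-fold were not simulated.

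The members, the other gene lists and the marker lists were chosen with earlier results of these data known. Values in every group were given for the members of highest level per length in each complex, for members called by genotype, age or sex, and for up to 3 members of largest absolute log2 fold change in each mutant. Of the other lists, at most 2 called genes per comparison were named, those of smallest p. Alternatives were other scalings, no filter, DESeq2 1.42.0, marker covariates, the replicate number as a block, fewer genotypes in the fit and each library left out. Leaving out the 9 high-background libraries, and the background as a covariate, were added after the data were seen. Library totals of 8690199 counts to 55801160 counts set the precision of genes of low level.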

Additional observations from a re-analysis of the deposited data

How the results depend on the processing

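No gene of the set was called in a mutant against WG2, or in the tests of whether a mutant's age or sex difference departs from that of WG2, under any of the 12 other settings or without any of the 48 libraries. Between KO and W422X the number called without 1 library ran between 0 and 25, and 25 were called without W422X female week 3 replicate 1. With age in KO, 28 of the 41 genes were called (26 lower, 2 higher), 25 to 31 without 1 library, 18 with photoreceptor and fat body markers as covariates and 13 without the 9 high-background libraries. In W422X 21 were called, 14 to 27 without 1 library, and the median over the 41 genes ran between -0.731 and -0.409. In Y160C 23 were called, 19 to 26 without 1 library, 13 with muscle markers as a covariate and 14 without the 9 high-background libraries. In WG2 22 were called, 13 to 24 without 1 library, and 14 without KO female week 3 replicates 1 and 3. The share of all tested genes called in these fits is not given here, so the shifts are not shown to be particular to these genes. The cause of these shifts was not tested. With library totals alone as the scaling, the median of all tested genes with age was 0.313 in KO, 0.256 in W422X, 0.334 in Y160C and 0.244 in WG2, and that of the 41 genes -0.534, -0.409, -0.372 and -0.328.

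With photoreceptor and fat body markers as covariates, 7 of the 41 genes were called higher in males, with a median of 0.067 over all 41. None of the 7 was among the 24 genes called without covariates, of which 13 were weaker and 11 reversed. The 7 thus come from the 14 paralogs, COX6B, COX7B and ATPsyndelta, and the share of all genes called there is not given here. The log2 fold changes, males over females, turned to -0.04 for Cyt-c1, -0.032 for RFeSP, -0.127 for UQCR-11, -0.061 for UQCR-C1, -0.03 for UQCR-C2, -0.057 for COX7A, -0.016 for ATPsynC, -0.049 for ATPsynE, -0.029 for ATPsynF, -0.075 for ATPsynbeta and -0.035 for blw. The cause was not tested. The replicate numbers did not pair the libraries: deviations of same-numbered libraries had a mean correlation of -0.0145, and 16 of 48 libraries correlated best with their own number. These are the numbers of the sample titles, and for the numbers in the library names, which differ in 21 libraries, the values were -0.0152 and 14. With the replicate block, 28 genes were called with age in KO, 21 in W422X, 21 in Y160C and 21 in WG2, 23 by sex and 0 in each mutant comparison. The share of all tested genes called with that block is not given here. Of the 14 paralogs, 10 had 0 counts in at least 1 library, which limits the precision of their fold changes.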

Other observations

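The 2 matched genes without counts have all of their exon bases within exons of an opposite-strand gene. Among 13802 protein-coding genes, 68 of the 69 genes in that position had 0 counts in all 48 libraries, as had 305 of 305 whose exon bases all lie within same-strand exons of another gene. Of the 9338 protein-coding genes that share no exon base, 10 had 0 counts, and of the 4090 that share some but not all bases, 9 had 0. How reads in shared exon bases were counted is not given in the sources used here.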
